A study of Mus musculus with 11 samples.

Results

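The Hox genes of the mouse were described in embryonic stem (ES) cells kept in 3 media. Members were all genes whose symbol is Hox followed by the letter of the cluster (a, b, c or d) and a paralogue number from 1 to 13, which gave 39 genes of 20964 genes named on the array: 11 in the HoxA cluster, 10 in HoxB, 9 in HoxC and 9 in HoxD. The clusters lie on chromosomes 6, 11, 15 and 2, in that order. Where a gene had several probes, only the probe that was brightest on average was used, so each gene has 1 value per array.

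Hox genes encode homeodomain transcription factors that give cells their position along the body axis. Within a cluster the genes stand in the order in which they are used, with low paralogue numbers at the end that is activated early and anteriorly, and high numbers at the end used late and posteriorly. In ES cells the clusters are known as targets of Polycomb repression that carry activating and repressive histone marks at once, and retinoic acid is a classic inducer of the low-numbered genes.

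RNA came from unsorted mouse ES cells of background strain 129/Ola, from the lines E14, HVJu5.1 and HVJu9.3, after at least 3 passages in 1 of the media. All media contained LIF, a cytokine that sustains ES cell self-renewal. Serum/LIF is the classical medium (3 arrays), and the others are serum-free. The 2i/LIF medium contains inhibitors of MEK and GSK3 (5 arrays), and KOSR/LIF contains a defined serum replacement (3 arrays). Serum/LIF and 2i/LIF thus differ in serum as well as in the inhibitors. The lines HVJu5.1 and HVJu9.3 each gave 2 of the 2i/LIF samples, and titles and source names disagree on the line of replicates 1 to 4 of 2i/LIF. Whether repeated samples of a line were separate cultures is not given, and p-values then reflect only how far these samples spread, which may be technical. The 10 ES cell markers examined, among them Pou5f1, Nanog and Esrrb, were well above background on all 11 arrays.

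Each array's intensities were put on a log2 scale relative to its own 75th percentile, which is the scale of every level below. A level of 0 equals the 75th percentile of that array. KOSR/LIF replicate 3 was a weak array: its 75th percentile was 65.3 intensity units against 176 to 538 on the others, and 43.7% of probes were well above background against 53.7% to 72.6%. The lowest level that still counted as well above background was -2.37 on that array and between -6.27 and -3.80 on the others, so dim signals of KOSR/LIF replicate 3 sit high on the scale. Its ES cell markers had the lowest summed relative intensity, 467 against 556 to 1013 on the others. Its Pou5f1 level was 3.69 against 5.65 to 6.27 on the others, and its Nanog level 1.21 against 2.93 to 4.63. Klf4, at 4.15, lay within the range of the others, 3.55 to 4.91. Per the file headers the arrays fell into 3 scan days: the first held replicates 1 and 2 of serum/LIF, 3 and 4 of 2i/LIF and 1 and 2 of KOSR/LIF; the second held 2i/LIF replicate 2 and KOSR/LIF replicate 3; the third held serum/LIF replicate 3 and 2i/LIF replicates 1 and 5. In the authors' deposited value table, the columns of 2i/LIF replicates 1 and 4 each correlated best with the other's scanner array (Spearman 0.995 and 0.992 over 55648 probes, against 0.933 and 0.936 with their own). KOSR/LIF replicates 1 and 2 were exchanged in the same way. The column of KOSR/LIF replicate 3 matched no scanner array (0.842 with its own, 0.962 at best, with serum/LIF replicate 3). The exchanges of replicates lie within a medium, and replicate numbers below are those of the scanner files.

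Detection of Hox genes differed between arrays of a medium as well as between media. Well above background were 11, 10 and 26 of the 39 genes on serum/LIF replicates 1 to 3. The counts were 29, 18, 18, 15 and 32 on 2i/LIF replicates 1 to 5 and 19, 28 and 15 on KOSR/LIF replicates 1 to 3. On serum/LIF replicate 3 and 2i/LIF replicate 5, which had the lowest detection limits, 80.6% and 80.4% of all named genes were well above background, against 58.2% to 72.7% on the other 9 arrays. Of the 9 HoxD genes 0, 0 and 6 were detected in serum/LIF, 6, 3, 0, 0 and 7 in 2i/LIF and 1, 4 and 0 in KOSR/LIF.

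**Figure D1:**
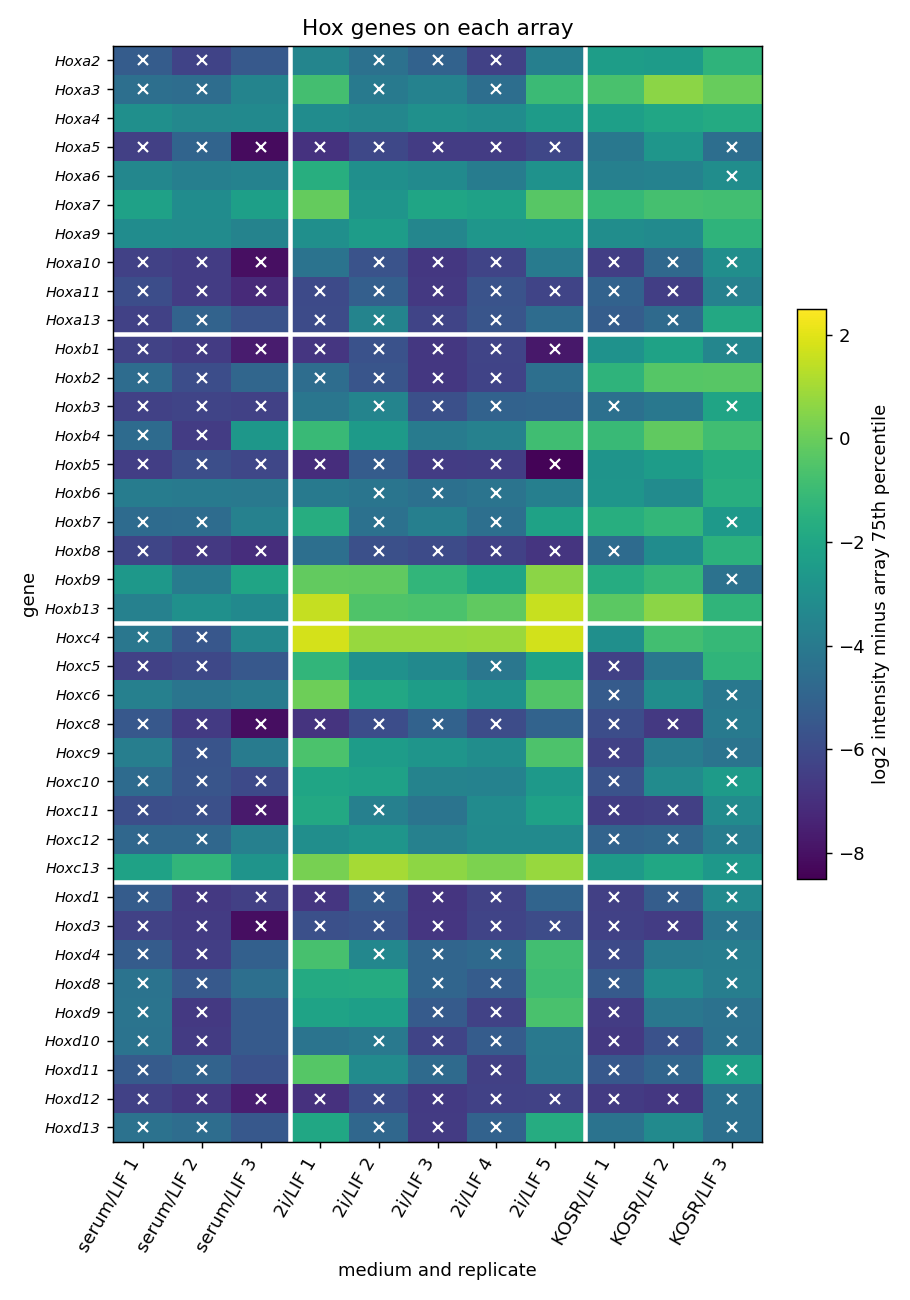
Levels of Hox genes (rows, by cluster and paralogue number) on each of the 11 arrays (columns), as log2 intensity minus the array's 75th percentile; a white cross marks a probe not well above background. HoxC is brighter on the 5 2i/LIF arrays and the low-numbered HoxA and HoxB genes on the 3 KOSR/LIF arrays. Some HoxD genes, among them Hoxd4 and Hoxd13, are brightest on 2i/LIF replicates 1 and 5, while others are dim on every array.

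For the test across all genes, a probe had to stand well above background on 3 or more of the 11 arrays. This left 31 Hox genes among 16279 genes. Hoxa5, Hoxa10, Hoxa11, Hoxb1, Hoxc8, Hoxd1, Hoxd3 and Hoxd12 did not pass. A gene can pass through the medium in which it is high, so counts over the tested members are given beside those of a fit with no filter, which covers all 39.

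Cells in 2i/LIF had higher levels of HoxC genes than cells in serum/LIF. Of the 31 Hox genes tested 9 were higher and 0 lower (limma, adjusted p below 0.05), where 6.74% of all genes tested were higher and 9.98% lower. The 9 were the 8 tested HoxC genes and Hoxb13. With no filter 6 of the 39 were higher and 0 lower, against 4.28% and 6.89% of all named genes. On all 5 arrays of 2i/LIF 12 of the 39 genes lay above all 3 serum/LIF arrays, and 0 lay below them, where 9.37% and 11.2% of all named genes did so. Over the 9 HoxC genes the median difference was 2.61 (log2), against 0.66 for the 11 HoxA genes, 0.88 for the 10 HoxB genes, 0.93 for the 9 HoxD genes and 0.09 for all named genes. These medians count undetected genes too. The HoxD median was the value of Hoxd3, which no array detected and which differed by -0.03 within the first scan day. It is therefore not read as a rise.

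Hoxc4, which takes part in cervical and upper thoracic patterning, had the largest difference among the 39 genes. Its levels were -4.15, -5.50 and -3.38 in serum/LIF, 1.79, 0.80, 0.80, 0.87 and 1.74 in 2i/LIF and -3.03, -0.85 and -1.15 in KOSR/LIF. The 3 media did not overlap, and in serum/LIF only replicate 3 was well above background. The level was 5.54 ± 0.56 (log2, SE) higher in 2i/LIF than in serum/LIF (limma, adjusted p = 5.41e-05), or 46.5-fold, and 5.21 with signals below the detection limit raised to it. Within the first and the third scan day the difference was 5.65 and 5.14.

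Hoxc4 was the 1 HoxC gene with an entry in the RefSeq promoter table, so its 250 bases before the listed start are shown (chr15:103034145-103034394, plus strand, GRCm38.p6). Capitals mark 1 match to the retinoid receptor hexamer AGGTCA on the minus strand, 146 to 141 bases before the start.
Hoxc4: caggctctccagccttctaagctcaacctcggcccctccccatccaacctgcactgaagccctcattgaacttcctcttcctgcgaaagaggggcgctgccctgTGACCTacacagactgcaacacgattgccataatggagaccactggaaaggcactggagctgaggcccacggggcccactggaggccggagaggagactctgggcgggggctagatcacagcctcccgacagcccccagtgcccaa
This hexamer was found on either strand in 14.02% of the 32851 promoter windows of the same length in the table. The window held 8 CpG dinucleotides, against a median of 6 over all windows. No binding was measured, and a match is a description of the letters only.

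Hoxc13, a regulator of hair and nail keratins, was detected in every medium. Its levels were -2.14, -1.28 and -2.80 in serum/LIF, 0.23, 1.04, 0.62, 0.34 and 0.82 in 2i/LIF and -2.52, -1.96 and -2.62 in KOSR/LIF, the last not well above background. The 2i/LIF arrays lay close together and above all others. The difference to serum/LIF was 2.68 ± 0.34 (log2, SE; limma, adjusted p = 0.000233), a 6.42-fold higher level, with 2.19 within the first scan day and 3.32 within the third.

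The HoxC genes between them shared the direction with a wider spread. Hoxc6, a gene of the thoracic region, had levels of -3.71, -4.22 and -3.92 in serum/LIF, 0.07, -1.89, -2.37, -2.89 and -0.48 in 2i/LIF and -5.33, -3.12 and -4.08 in KOSR/LIF. Hoxc9, which sets thoracic motor neuron identity, had levels of -3.79, -5.62 and -3.94, then -0.62, -2.43, -2.77, -3.09 and -0.57, then -6.37, -3.82 and -4.26 in the same order of media. In both genes 2i/LIF replicates 1 and 5 were the highest of all arrays, and the other 2i/LIF arrays still lay above every serum/LIF array. The differences were 2.43 ± 0.66 for Hoxc6 and 2.56 ± 0.75 for Hoxc9 (log2, SE; adjusted p = 0.0254 and 0.0368).

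Hoxc5 levels were -6.39, -6.12 and -5.47 in serum/LIF, -1.27, -2.94, -3.27, -4.14 and -2.15 in 2i/LIF and -6.39, -4.15 and -1.31 in KOSR/LIF. Hoxc10, a gene of the lumbar region, had levels of -4.66, -5.59 and -6.03 in serum/LIF, -2.03, -2.22, -3.60, -3.62 and -2.61 in 2i/LIF and -5.67, -3.20 and -2.47 in KOSR/LIF. Hoxc11, used in hindlimb and lumbosacral patterning, had levels of -5.87, -5.81 and -7.70 in serum/LIF, -1.86, -3.71, -4.29, -3.17 and -2.19 in 2i/LIF and -6.51, -6.42 and -3.20 in KOSR/LIF. Neither Hoxc10 nor Hoxc11 was well above background on any serum/LIF array, so their differences are bounds: at least 4.25-fold higher for Hoxc10 (5 of 5 2i/LIF arrays detected) and at least 3.84-fold for Hoxc11 (4 of 5 detected), with adjusted p = 0.0174 and 0.0118. A bound sets the mean of the bright medium against the mean detection limit of the dim arrays, or the probe's own signal where that is higher. Arrays of the bright medium that did not detect the gene enter with their own signal. A bound is therefore strict only where all of them detected it, and only for the processing used here. Under the alternatives described below, the log2 difference went down to 0.64 for Hoxc10 and 0.70 for Hoxc11.

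Hoxc5 differed by 3.24 ± 0.93 (log2, SE; adjusted p = 0.0330), or 1.97 with dim signals raised. Hoxc12 had levels of -4.83, -4.84 and -3.70 in serum/LIF, -3.05, -2.77, -3.68, -3.24 and -3.22 in 2i/LIF and -5.02, -4.85 and -3.82 in KOSR/LIF, and its lowest 2i/LIF array lay next to serum/LIF replicate 3. Its difference of 1.26 ± 0.36 (adjusted p = 0.0299) was the smallest among the 8, and 0.94 with dim signals raised. Hoxc8, a brachial motor neuron gene, was detected on 1 of the 11 arrays, 2i/LIF replicate 5, and was not tested.

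**Figure D2:**
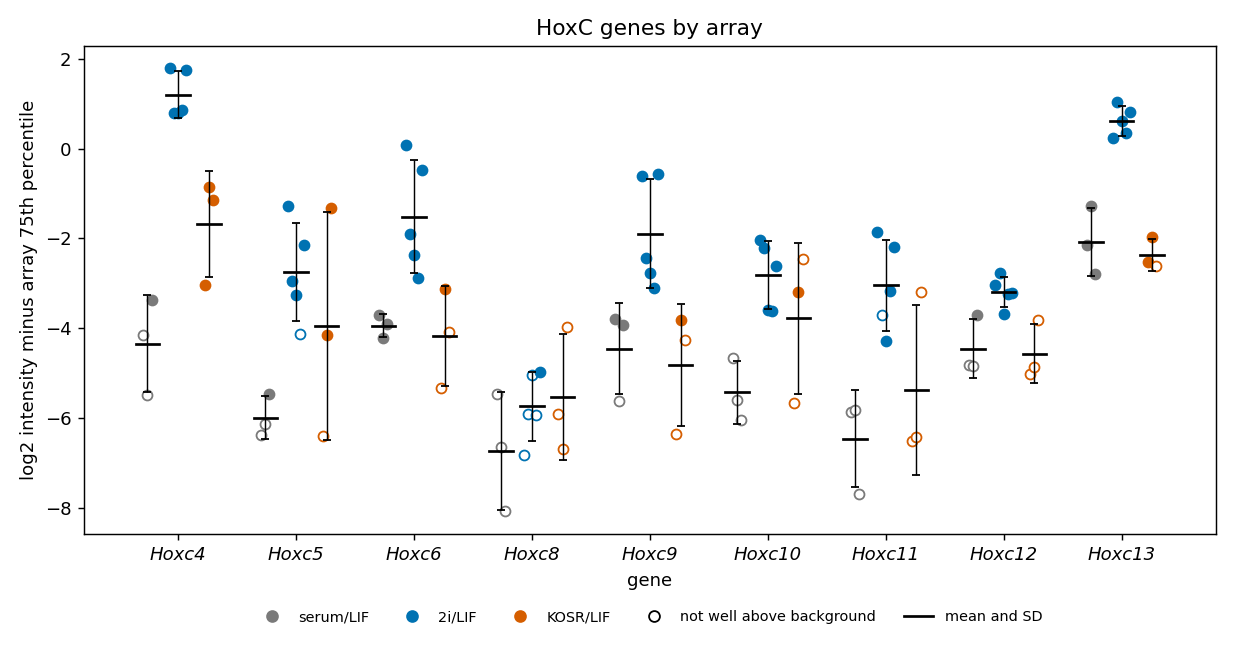
Levels of the 9 HoxC genes on each array (log2 intensity minus the array's 75th percentile), with open points where the probe was not well above background and bars for mean and SD of a medium. For every gene but Hoxc8 the 5 2i/LIF points lie above the 3 serum/LIF points.

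Hoxb13, expressed in tail bud and prostate, was the 1 called gene outside HoxC in 2i/LIF against serum/LIF without a block for scan day. Its levels were -3.66, -2.98 and -3.29 in serum/LIF, 1.51, -0.52, -0.63, -0.19 and 1.57 in 2i/LIF and -0.25, 0.60 and -1.28 in KOSR/LIF, and it was detected on all 11 arrays. The difference between 2i/LIF and serum/LIF was 3.66 ± 0.59 (log2, SE; adjusted p = 0.00116), a 12.6-fold higher level. Hoxb9, its neighbour in the cluster, had levels of -2.66, -3.93 and -2.09 in serum/LIF, -0.13, -0.17, -1.26, -2.03 and 0.57 in 2i/LIF and -1.71, -1.16 and -4.35 in KOSR/LIF. Serum/LIF and 2i/LIF did not overlap, but the difference of 2.29 ± 0.76 had an adjusted p of 0.0620 and did not pass. Hoxb3 and Hoxd4, given below, did not overlap between these media either and did not pass (Hoxb3 1.63 ± 0.57, adjusted p = 0.0763).

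Hoxc4, Hoxc13 and Hoxb13 passed in 2i/LIF against serum/LIF under all 27 alternatives tried. The size of the difference varied, from 3.26 to 6.02 (log2) for Hoxc4, 1.92 to 3.08 for Hoxc13 and 2.24 to 3.90 for Hoxb13. The count of 9 fell to 3 without 2i/LIF replicates 1 and 5, to 5 without serum/LIF replicate 1, serum/LIF replicate 3 or 2i/LIF replicate 5, and to 4 without serum/LIF replicate 2. The members that passed without 2i/LIF replicates 1 and 5 were Hoxc4, Hoxc13 and Hoxb13. In a fit with dim signals raised Hoxc5, Hoxc11 and Hoxc12 were not called, and Hoxc5 passed under 12 of 26 alternatives, Hoxc9 under 12 of 27 and Hoxc12 under 15 of 27. Scan days were shared between media, and with scan day as a block 13 genes were higher, namely all 9 and also Hoxb3, Hoxb4, Hoxb7 and Hoxd4.

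HoxD genes varied widely within 2i/LIF. Hoxd4 levels were -5.31, -6.47 and -5.13 in serum/LIF, -0.72, -3.40, -4.90, -4.75 and -0.82 in 2i/LIF and -6.04, -3.93 and -3.86 in KOSR/LIF. Hoxd9 levels were -4.28, -6.68 and -5.39, then -2.12, -2.28, -5.32, -6.34 and -0.64, then -6.54, -4.13 and -4.35. Hoxd13, a gene of the digits and genital tubercle, had levels of -4.35, -4.55 and -5.47, then -1.95, -4.82, -6.60, -5.06 and -1.69, then -4.30, -3.23 and -4.44. All 3 genes were high on 2i/LIF replicates 1 and 5, and on replicates 3 and 4 none of the 9 HoxD genes was well above background.

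Of the 6 HoxD genes tested, 0 passed in any comparison, and Hoxd4 was the nearest in 2i/LIF against serum/LIF (2.72 ± 1.00, adjusted p = 0.0910; with scan day as a block 2.35 ± 0.70, adjusted p = 0.0447). With no filter 0 of 9 passed as well. The array SD of Hoxd4 in 2i/LIF was 2.05, and its difference to serum/LIF passed under 2 of 26 alternatives, the scan day block among them. Within the first scan day, the 9 HoxD genes differed between 2i/LIF and serum/LIF by -1.38 to 1.06, and within the third by 0.55 to 4.37. Cdx1, a caudal-type homeobox regulator of posterior Hox genes, had levels of 5.57 and 4.16 on 2i/LIF replicates 1 and 5 and 0.38, 2.33 and 2.21 on replicates 2 to 4. Cdx2, a related gene, had levels of 0.09, -5.96, -3.68, -1.25 and -1.98 on 2i/LIF replicates 1 to 5. Its serum/LIF levels were -0.94, -2.71 and -1.48, so it was not high on 2i/LIF replicate 5. No array detected Cdx4. The part of Cdx1 in the HoxD and HoxC levels was not tested. The difference of Cdx1 between 2i/LIF and serum/LIF did not pass (3.00 ± 0.99, adjusted p = 0.0618).

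**Figure D3:**
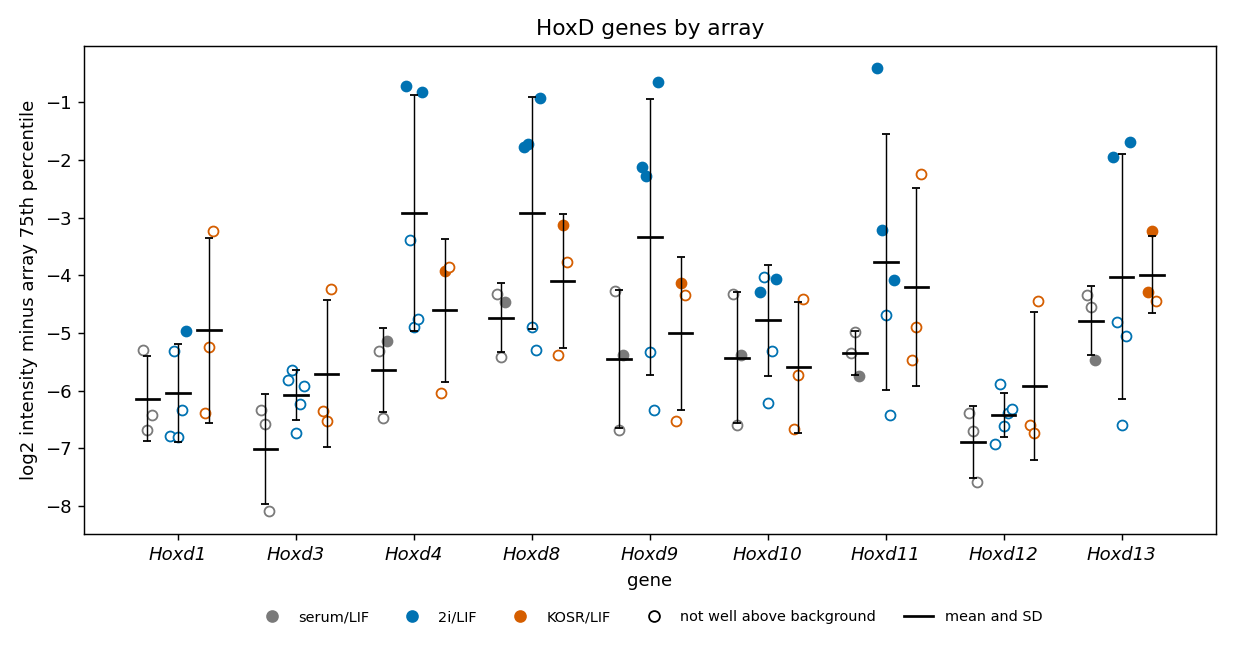
Levels of the 9 HoxD genes on each array (log2 intensity minus the array's 75th percentile), with open points where the probe was not well above background and bars for mean and SD. Filled 2i/LIF points are those of replicates 1, 2 and 5, and the open ones near the bottom include replicates 3 and 4 for every gene.

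Cells in KOSR/LIF had higher levels of low-numbered HoxA and HoxB genes than cells in serum/LIF. Of the 31 Hox genes tested 11 were higher and 0 lower, against 2.37% and 2.21% of all genes tested. They were Hoxa2, Hoxa3 and Hoxa4, Hoxb2, Hoxb3, Hoxb4, Hoxb5, Hoxb6, Hoxb8 and Hoxb13, and Hoxc4. With no filter 5 of the 39 were higher and 0 lower, against 1.16% and 0.987% of all named genes. Arrays did not overlap, with KOSR/LIF higher, for 16 of the 39 genes, and 0 had KOSR/LIF lower, against 11.5% and 12.4% of all named genes. Of all genes called in this comparison 51.8% were higher in KOSR/LIF, and this share was 38.0% with normexp background correction and 41.1% with quantile normalization, while all Hox genes called under either were higher.

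The differences were larger at low paralogue numbers. The median difference was 2.73 (log2) over the 12 genes of paralogue numbers 1 to 4, 1.63 over the 11 genes of numbers 5 to 8 and 0.89 over the 16 genes of numbers 9 to 13, against 0.15 over all named genes. The KOSR/LIF arrays lay above the serum/LIF arrays for 9 of 12, 6 of 11 and 1 of 16 genes in these classes. By cluster the medians were 1.74 in HoxA, 3.28 in HoxB, 1.08 in HoxC and 0.97 in HoxD. Class and cluster medians count undetected genes too, and dim signals of KOSR/LIF replicate 3 sit high on the scale. The HoxC median was the value of Hoxc11, detected in neither KOSR/LIF nor serum/LIF, and the HoxD median that of Hoxd12, which no array detected. Within the first scan day, which lacks KOSR/LIF replicate 3, Hoxc11 differed by -0.62 and Hoxd12 by -0.11. The HoxC and HoxD medians are therefore not read as rises. The same 3 paralogue classes, in 2i/LIF against serum/LIF, had medians of 1.09, 0.99 and 1.59. The median of 0.99 was the value of Hoxc8, detected on 1 array.

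Hoxb2, which patterns the hindbrain, had the largest difference among the tested members in KOSR/LIF against serum/LIF. Its levels were -4.61, -5.90 and -4.86 in serum/LIF, -4.56, -5.59, -6.72, -6.28 and -4.48 in 2i/LIF and -1.36, -0.41 and -0.34 in KOSR/LIF. It was well above background on all KOSR/LIF arrays and on 1 array of each other medium. The difference between KOSR/LIF and serum/LIF was 4.42 ± 0.60 (log2, SE; adjusted p = 0.00438), a 21.5-fold higher level. It was 3.82 with dim signals raised and 4.37 within the first scan day.

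Hoxb1, a marker of the hindbrain and an early retinoic acid target, was well above background only on KOSR/LIF replicates 1 and 2. Its levels were -6.35, -6.60 and -7.67 in serum/LIF, -6.78, -5.75, -6.72, -6.26 and -7.81 in 2i/LIF and -2.88, -2.18 and -3.45 in KOSR/LIF. Its level was at least 4.43-fold higher in KOSR/LIF than in serum/LIF, or at least 5.49-fold without KOSR/LIF replicate 3, which did not detect it. With 2 detected arrays it missed the filter, and in the fit with no filter it passed (4.04 log2, adjusted p = 0.0105).

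Hoxb5 levels were -6.46, -5.84 and -6.14 in serum/LIF, -7.08, -5.28, -6.56, -6.52 and -8.40 in 2i/LIF and -2.79, -2.43 and -1.75 in KOSR/LIF. It was detected on the 3 KOSR/LIF arrays and on none of the other 8. Its level was at least 6.15-fold higher than in serum/LIF (limma, adjusted p = 0.00687). Under the alternatives tried the Hoxb5 difference went down to 1.23 (log2). Hoxb4, known for its effect on blood stem cell expansion, had levels of -4.64, -6.55 and -2.69 in serum/LIF, -1.03, -2.50, -3.94, -3.67 and -0.89 in 2i/LIF and -1.04, -0.20 and -0.86 in KOSR/LIF. The KOSR/LIF arrays lay above serum/LIF by 3.93 ± 0.98 (adjusted p = 0.0444; 3.10 with dim signals raised), and overlapped 2i/LIF, whose replicates 1 and 5 reached the same level.

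Hoxa2, which specifies the second pharyngeal arch, had levels of -5.32, -6.30 and -5.43 in serum/LIF, -3.50, -4.42, -5.03, -6.38 and -3.76 in 2i/LIF and -2.38, -2.48 and -1.36 in KOSR/LIF. Hoxa3, needed for thymus and parathyroid, had levels of -4.48, -4.57 and -3.55, then -0.80, -3.98, -3.62, -4.54 and -1.01, then -0.67, 0.57 and -0.05. Both genes were detected on all KOSR/LIF arrays and in serum/LIF on replicate 3 only. The differences to serum/LIF were 3.61 ± 0.65 for Hoxa2 (adjusted p = 0.0112; 2.63 with dim signals raised) and 4.15 ± 0.91 for Hoxa3 (adjusted p = 0.0266). Hoxa4 was detected on every array, with levels of -3.00, -3.37 and -3.27 in serum/LIF, -3.15, -3.42, -2.98, -3.14 and -2.46 in 2i/LIF and -2.28, -1.99 and -1.76 in KOSR/LIF. Its difference to serum/LIF was smaller, 1.21 ± 0.28 (adjusted p = 0.0310).

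Hoxb3, Hoxb6 and Hoxb8 completed the HoxB genes that rose next to Hoxb2. Hoxb8 levels were -6.20, -6.67 and -7.06 in serum/LIF, -4.48, -5.83, -5.98, -6.38 and -6.81 in 2i/LIF and -4.64, -3.14 and -1.44 in KOSR/LIF, detected on 2 of 3 KOSR/LIF arrays. Its mean KOSR/LIF level lay 3.76-fold above the serum/LIF detection limits (adjusted p = 0.0194), or 2.13-fold without KOSR/LIF replicate 3. These are not strict bounds, since KOSR/LIF replicate 1 did not detect it. Hoxb8 kept its call under 16 of 26 alternatives. Hoxb6 levels were -3.89, -3.99 and -4.07 in serum/LIF, -3.97, -4.21, -4.45, -4.28 and -3.75 in 2i/LIF and -2.78, -3.18 and -1.60 in KOSR/LIF. It differed by 1.46 ± 0.36 (adjusted p = 0.0433).

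Hoxb3 levels were -6.35, -6.25 and -6.38 in serum/LIF, -4.18, -3.53, -5.83, -5.02 and -4.93 in 2i/LIF and -4.45, -4.08 and -2.07 in KOSR/LIF. It was detected on 1 KOSR/LIF array, replicate 2, and was called against serum/LIF (adjusted p = 0.0305). The mean KOSR/LIF level lay 2.73-fold above the serum/LIF detection limits, or 1.64-fold without replicate 3, the highest of the 3. These are not strict bounds, since replicates 1 and 3 did not detect it. Without KOSR/LIF replicate 3 the call was lost. The call held under 14 of 26 alternatives. Hoxb13 was 3.00 ± 0.66 higher (adjusted p = 0.0266) and Hoxc4 2.67 ± 0.63 higher (adjusted p = 0.0346) than in serum/LIF. Hoxa5, Hoxa7 and Hoxb7 did not overlap between KOSR/LIF and serum/LIF but were not called.

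Hoxa7 levels were -2.19, -3.14 and -2.28 in serum/LIF, -0.12, -2.76, -2.01, -2.20 and -0.37 in 2i/LIF and -1.13, -0.74 and -0.84 in KOSR/LIF (KOSR/LIF minus serum/LIF 1.63 ± 0.63, adjusted p = 0.182). Hoxb7 levels were -4.66, -4.60 and -3.68, then -1.66, -4.39, -3.77, -4.48 and -2.17, then -1.61, -1.22 and -2.58 (2.51 ± 0.72, adjusted p = 0.0753). Both genes were also high on 2i/LIF replicates 1 and 5. Hoxa5, which acts in lung and cervical development, had levels of -6.43, -4.96 and -8.19 in serum/LIF, -6.91, -6.11, -6.54, -6.53 and -6.16 in 2i/LIF and -4.08, -2.74 and -4.53 in KOSR/LIF. It was detected on KOSR/LIF replicates 1 and 2 only and was at least 2.30-fold higher than in serum/LIF (adjusted p = 0.0778 with no filter, not passed). Without KOSR/LIF replicate 3 it was at least 2.98-fold higher.

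The RefSeq promoter table held 24 windows for 22 of the 39 genes. Of the 11 genes called in KOSR/LIF against serum/LIF, Hoxa2, Hoxb4 and Hoxb8, beside Hoxc4 shown above, had a window with at least 1 of the motifs searched, and their 250 bases before the listed start are shown to set the letters beside the levels. Their positions are chr6:52164832-52165081 (minus strand) for Hoxa2, chr11:96318017-96318266 (plus strand) for Hoxb4 and chr11:96281655-96281904 (plus strand) for Hoxb8, in GRCm38.p6. Capitals mark matches on either strand to 1 of the motifs. The letters searched were TATAAA for the TATA box, CCAAT for the box of that name, AGGTCA for the retinoid receptor hexamer, TTTATG for the site of Cdx factors and TGATTNAT for the joint site of Hox and Pbx.
Hoxa2: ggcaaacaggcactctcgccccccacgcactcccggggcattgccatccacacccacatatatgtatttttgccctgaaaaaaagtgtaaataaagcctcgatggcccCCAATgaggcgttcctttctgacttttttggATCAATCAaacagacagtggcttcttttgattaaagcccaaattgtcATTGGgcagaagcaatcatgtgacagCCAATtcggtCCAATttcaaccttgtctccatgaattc
Hoxb4: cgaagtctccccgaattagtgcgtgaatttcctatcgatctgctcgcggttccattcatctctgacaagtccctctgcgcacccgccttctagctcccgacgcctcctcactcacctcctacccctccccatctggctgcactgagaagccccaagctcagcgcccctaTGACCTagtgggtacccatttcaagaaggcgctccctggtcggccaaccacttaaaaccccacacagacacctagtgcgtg
Hoxb8: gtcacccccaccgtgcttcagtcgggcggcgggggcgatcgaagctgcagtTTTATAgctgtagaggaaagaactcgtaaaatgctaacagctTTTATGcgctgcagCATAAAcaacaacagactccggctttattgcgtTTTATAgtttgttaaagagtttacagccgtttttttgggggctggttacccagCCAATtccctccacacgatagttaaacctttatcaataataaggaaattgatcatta
Hoxb1, which passed only with no filter, had a window with 2 CCAAT matches that is not shown. The Hoxa2 window had 4 CCAAT matches and 1 Hox-Pbx match. Hoxb4 had 1 retinoid receptor hexamer, on the minus strand, 81 to 76 bases before the start. Hoxb8 had 2 TATA matches, 2 Cdx matches and 1 CCAAT match, and no matched letters overlapped between motifs. Over all 32851 windows of this length, 12.4% held TATAAA, 33.8% CCAAT, 14.02% AGGTCA, 10.8% TTTATG and 2.82% TGATTNAT, and among the 24 Hox windows 4, 14, 6, 5 and 2 did. The Hox windows had a median of 12.5 CpG dinucleotides against 6 over all windows. These counts describe letters and no binding was measured.

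**Figure D4:**
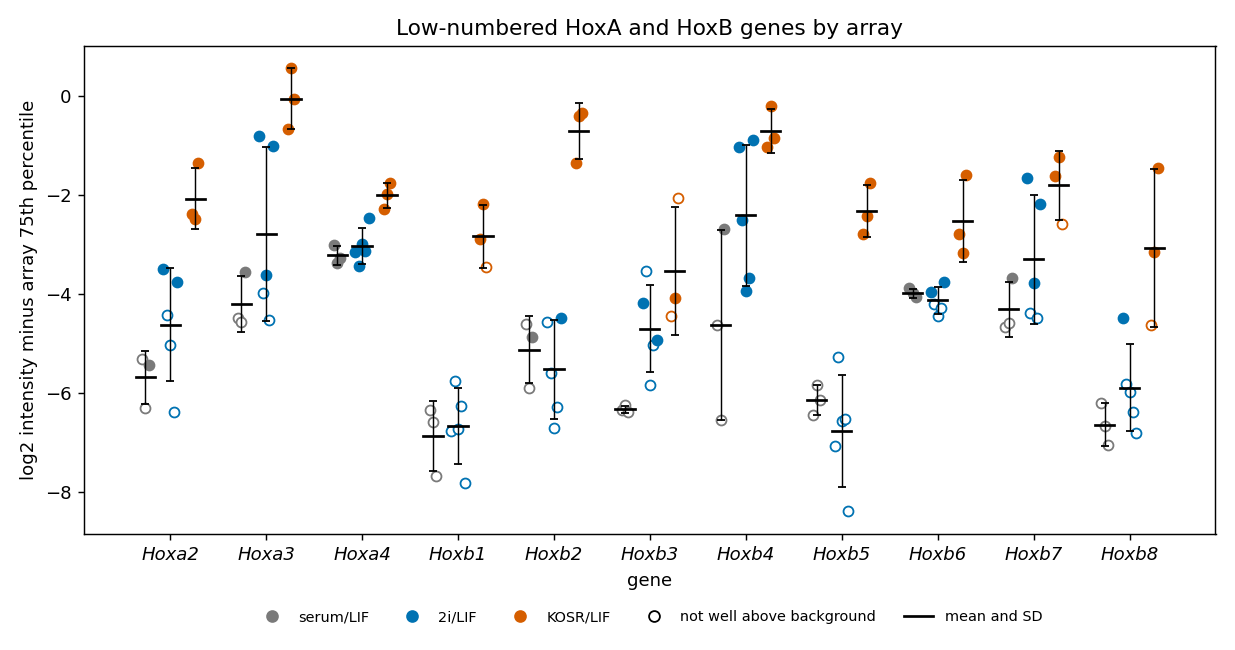
Levels of the HoxA genes of paralogue numbers 2 to 4 and the HoxB genes of numbers 1 to 8 on each array (log2 intensity minus the array's 75th percentile), with open points where the probe was not well above background and bars for mean and SD. The 3 KOSR/LIF points lie above the 3 serum/LIF points for all 11 genes shown, and Hoxb1 and Hoxb5 have no filled point outside KOSR/LIF.

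Hoxb2 passed in KOSR/LIF against serum/LIF under all 27 alternatives, but the size of its difference varied from 1.78 to 4.75 (log2). The count of 11 depended on single arrays: it was 3 without serum/LIF replicate 1 or replicate 2, 5 without serum/LIF replicate 3, 7 without KOSR/LIF replicate 1, 4 without KOSR/LIF replicate 2 and 5 without KOSR/LIF replicate 3. With scan day as a block it was 14, with all 11 among them and Hoxa7 and Hoxb7 among the others. Hoxa2 passed under 26 of 27 alternatives, Hoxb5 under 25, Hoxa3 under 19, Hoxb13 under 18, Hoxb4 under 15, Hoxa4 and Hoxc4 under 12 each and Hoxb6 under 7. In the authors' deposited table, the column of KOSR/LIF replicate 3 matches no scanner array, so which sample it holds cannot be told. On the same scale its levels were -1.997 for Hoxb1, 0.62 for Hoxb2, 0.71 for Hoxb4, -1.84 for Hoxb5 and -2.12 for Hoxb13. The serum/LIF columns ran from -5.17 to -3.49 for Hoxb1, -4.49 to -3.64 for Hoxb2 and -3.67 to -2.19 for Hoxb4. They ran from -4.45 to -4.42 for Hoxb5 and from -2.95 to -2.41 for Hoxb13. Hoxb13 thus lay near the serum/LIF columns and below the other KOSR/LIF columns (0.55 and -0.25).

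Set directly against each other, 2i/LIF and KOSR/LIF differed in both directions. Of the 31 genes tested 5 were higher in 2i/LIF (Hoxc4, Hoxc6, Hoxc9, Hoxc12 and Hoxc13) and 7 lower (Hoxa2, Hoxa3, Hoxa4, Hoxb2, Hoxb5, Hoxb6 and Hoxb8), against 5.95% and 8.72% of all genes tested. With no filter 5 of 39 were higher and 8 lower, against 3.52% and 6.1% of all named genes. Arrays did not overlap for 5 of the 39 genes with 2i/LIF higher and 8 with 2i/LIF lower, against 7.02% and 9.04%. This is the test of the difference between the media that share the serum/LIF control in the comparisons above.

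Hoxc13 was 2.98 ± 0.34 (log2, SE) higher in 2i/LIF than in KOSR/LIF (adjusted p = 0.000178) and Hoxc4 2.87 ± 0.56 higher (adjusted p = 0.00492). Hoxc6 was 2.67 ± 0.66 higher (adjusted p = 0.0188) and Hoxc9 2.92 ± 0.75 higher (adjusted p = 0.0225). Each had 1 of 3 KOSR/LIF arrays well above background, and with dim signals raised the differences were 1.79 and 1.64 and did not pass. Hoxc12 was not detected in KOSR/LIF and was at least 1.51-fold higher in 2i/LIF (adjusted p = 0.0231), or at least 2.47-fold without KOSR/LIF replicate 3. With normexp background correction its difference changed sign (-0.13, adjusted p = 0.812).

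In the other direction Hoxb2 fell by 4.82 ± 0.54 (log2, SE) in 2i/LIF against KOSR/LIF (adjusted p = 0.000162), a 28.3-fold lower level. It was detected on 1 array of 2i/LIF, and with dim signals raised it fell by 3.71. Hoxb5 had a level at least 5.53-fold lower (adjusted p = 0.000290). For Hoxb1 the level was at least 3.87-fold lower, and it passed in the fit with no filter (adjusted p = 0.000816). Hoxa5 was at least 2.01-fold lower and also passed in that fit (adjusted p = 0.0225). Without KOSR/LIF replicate 3, which detected neither gene, the bounds were 4.79-fold for Hoxb1 and 2.60-fold for Hoxa5. Hoxa2 fell by 2.55 ± 0.58, Hoxa3 by 2.74 ± 0.81, Hoxa4 by 1.02 ± 0.25, Hoxb6 by 1.61 ± 0.32 and Hoxb8 by 2.82 ± 0.65 (adjusted p from 0.00592 to 0.0428). With dim signals raised Hoxa2 fell by 1.98 and Hoxb8 by 1.65, and in a fit on such signals Hoxb8 was not called. Hoxb13 was not called between the media (0.66 ± 0.59, adjusted p = 0.525). Hoxc13 in 2i/LIF and Hoxb2 and Hoxb5 in KOSR/LIF passed under all 27 alternatives. The size varied, from 1.77 to 3.26 (log2) for Hoxc13, -5.61 to -1.81 for Hoxb2 and -4.82 to -1.23 for Hoxb5. Hoxb6 passed under 26 of 27, Hoxa2 under 25 (not with normexp correction or without KOSR/LIF replicate 3), Hoxa4 under 21 of 27, Hoxb8 under 20 of 26 and Hoxa3 under 11 of 27. Of the genes higher in 2i/LIF, Hoxc4 passed under 24 of 27, Hoxc12 under 21, Hoxc9 under 20 and Hoxc6 under 18. With scan day as a block 16 genes passed, with all 12 among them and Hoxb3, Hoxb4 and Hoxb7 among the others.

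**Figure D5:**
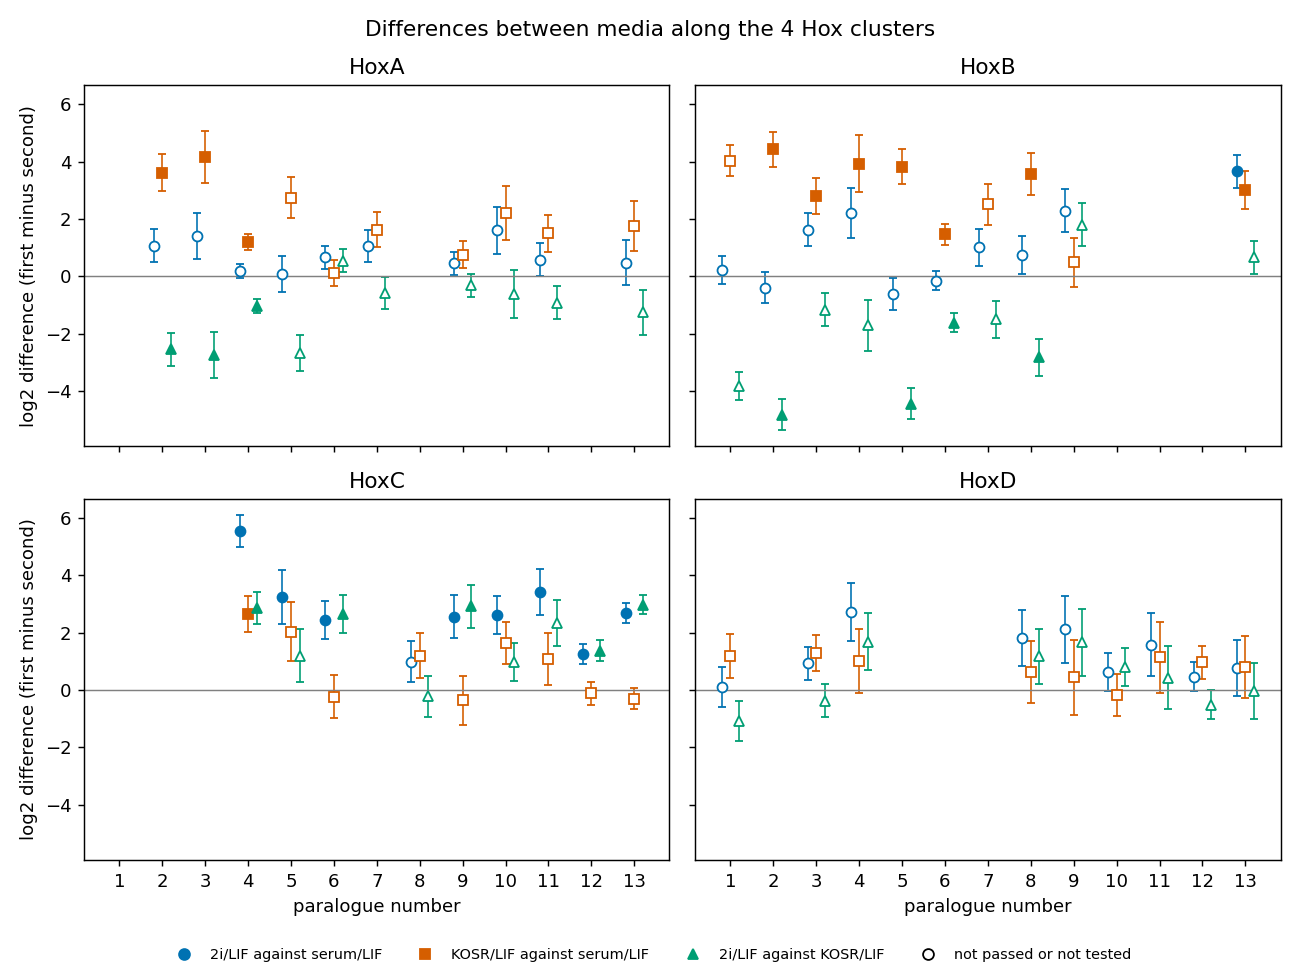
Log2 difference between media for Hox genes by cluster (panels) and paralogue number (x axis), with SE bars. Filled symbols passed at an adjusted p below 0.05 and open ones did not or were not tested (SE then from the fit with no filter). KOSR/LIF against serum/LIF is high at low numbers of HoxA and HoxB, 2i/LIF against serum/LIF is high across HoxC, and no HoxD symbol is filled.

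The remaining HoxA and HoxD genes were not called in any comparison. Hoxa6 and Hoxa9 were detected on most arrays, and their differences ran from -0.31 to 0.76 (log2) with media that overlapped. Hoxa13 was well above background on serum/LIF replicate 3, 2i/LIF replicate 5 and KOSR/LIF replicate 3, Hoxa10 on 2i/LIF replicates 1 and 5, and Hoxd1 on 2i/LIF replicate 5. Hoxd8, Hoxd10 and Hoxd11 were each detected on serum/LIF replicate 3 and on 2i/LIF replicates 1 and 5, Hoxd8 and Hoxd11 also on 2i/LIF replicate 2, and Hoxd8 on KOSR/LIF replicate 2. They differed in 2i/LIF against serum/LIF by 1.81 ± 0.97, 0.65 ± 0.66 and 1.59 ± 1.11 (log2, SE; adjusted p = 0.270, 0.635 and 0.431). Hoxa11, Hoxd3 and Hoxd12 were not well above background on any of the 11 arrays.

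Genes next to the clusters were examined from a list of 18, of which 16 were tested. Between 2i/LIF and serum/LIF 2 were higher and 1 lower in 2i/LIF, against 6.74% and 9.98% of all genes tested. These 3 genes flank HoxB. Calcoco2, an autophagy receptor beyond Hoxb13, had levels of 1.55, 1.44 and 1.81 in serum/LIF, 4.68, 4.09, 4.20, 4.64 and 5.40 in 2i/LIF and 3.36, 3.21 and 1.80 in KOSR/LIF. It was 3.00 ± 0.39 (log2, SE) higher in 2i/LIF than in serum/LIF (adjusted p = 0.000273), and Ttll6, also beyond Hoxb13, was 1.18 ± 0.36 higher (adjusted p = 0.0415). Skap1, a T cell adaptor gene beyond Hoxb1, had levels of -3.58, -2.25 and -2.65 in serum/LIF, -5.96, -6.05, -4.50, -5.05 and -5.18 in 2i/LIF and -1.21, -1.10 and -1.85 in KOSR/LIF. Of the 2i/LIF arrays only replicate 5 detected it. It fell by 2.52 ± 0.41 in 2i/LIF against serum/LIF (adjusted p = 0.00118), and fell by 3.96 ± 0.41 against KOSR/LIF (adjusted p = 9.90e-05). With dim signals raised it fell by 1.68 and by 3.11 in these comparisons. In KOSR/LIF against serum/LIF 0 of 16 passed, and no tested gene beside HoxA, HoxC or HoxD passed in any comparison.

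Of 19 genes of retinoic acid metabolism and signalling 18 were tested. In KOSR/LIF against serum/LIF 3 were higher and 0 lower (all genes tested 2.37% and 2.21%). In 2i/LIF against KOSR/LIF 2 were higher and 8 lower (all genes tested 5.95% and 8.72%). In 2i/LIF against serum/LIF 2 were higher and 3 lower (all genes tested 6.74% and 9.98%). Stra8, a retinoic acid response gene of germ cells, had levels of -1.35, -0.46 and 3.19 in serum/LIF, 3.79, 0.84, 3.53, 0.00 and 2.89 in 2i/LIF and 7.01, 6.75 and 5.90 in KOSR/LIF. The KOSR/LIF arrays were the highest 3, by 6.09 ± 1.19 against serum/LIF (log2, SE; adjusted p = 0.0161). Stra6, a retinol transporter, was 3.77 ± 0.55 higher (adjusted p = 0.00532), or 3.08 with dim signals raised. Cyp26a1, which degrades retinoic acid, fell by 2.95 ± 0.30 in 2i/LIF against serum/LIF (adjusted p = 5.40e-05) and by 3.47 ± 0.30 against KOSR/LIF (adjusted p = 3.74e-05). Of the 2i/LIF arrays only replicate 5 detected Cyp26a1, so the size of both falls rests in part on signals near background. The median difference of the 18 genes in KOSR/LIF against serum/LIF was 0.41, against -0.03 over all genes tested, and the part of these genes in the Hox levels was not tested.

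Of the 26 Polycomb genes, all tested, 3 were higher and 3 lower in 2i/LIF against serum/LIF (all genes tested 6.74% and 9.98%). In KOSR/LIF against serum/LIF 1 was higher (Bmi1) and 0 lower (all genes tested 2.37% and 2.21%). In 2i/LIF against KOSR/LIF 3 were higher and 2 lower (all genes tested 5.95% and 8.72%). Cbx8, a chromobox subunit of Polycomb complexes, was 3.82 ± 0.52 (log2, SE) higher in 2i/LIF than in serum/LIF (adjusted p = 0.000382; 2.54 with dim signals raised), and Phf19, an accessory subunit, fell by 1.99 ± 0.42 (adjusted p = 0.00642). Of 9 Hox cofactors of the Pbx, Meis and Pknox families, all tested, 2 were higher in 2i/LIF against serum/LIF (Meis2 3.28 ± 0.55 and Pknox2 1.96 ± 0.43, adjusted p = 0.00156 and 0.00757). Pknox2 was also the 1 that rose in KOSR/LIF against serum/LIF (2.07 ± 0.48, adjusted p = 0.0326). In 2i/LIF against KOSR/LIF 0 were higher and 3 were lower, Meis1 by the most (it fell by 2.30 ± 0.41, adjusted p = 0.00283).

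Embryonic fibroblasts, which often serve as feeder cells, express Hox genes, so their markers are given beside these results. Of 12 fibroblast markers 9 were tested. In 2i/LIF against serum/LIF 0 were higher and 4 lower, and in KOSR/LIF against serum/LIF 1 was higher (Col1a2) and 0 lower. Over all genes tested 6.74% were higher and 9.98% lower in the first comparison and 2.37% and 2.21% in the second. In 2i/LIF against KOSR/LIF 5.95% and 8.72% were. Summed over the 12 markers, the intensity relative to the array's 75th percentile ran from 3.93 to 13.9 in serum/LIF, from 2.05 to 3.45 in 2i/LIF and from 7.34 to 12.6 in KOSR/LIF. Col1a1, Col1a2 and Thy1 were well above background on all 11 arrays, Prrx1 and Fap on 0 and Postn on 1. Tbx15 and Pdgfrb had differences of 1.83 and 0.81 in 2i/LIF against serum/LIF and did not pass (adjusted p = 0.314 and 0.250). Primitive endoderm markers, 7 genes that were all tested, had 0 higher and 6 lower members in 2i/LIF against KOSR/LIF and 1 higher (Gata4) and 0 lower in KOSR/LIF against serum/LIF. Their summed relative intensity ran from 0.573 to 1.35 in serum/LIF, from 0.287 to 0.558 in 2i/LIF and from 1.103 to 8.98 in KOSR/LIF. Of 8 hindbrain and spinal neural markers 5 were tested, with 0 higher and 1 lower in KOSR/LIF against serum/LIF. The part of such cells in the HoxA, HoxB and HoxC levels was not tested. In bulk RNA, a difference in the number of cells that express a gene and a difference in RNA per cell cannot be told apart.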

How the data were processed

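RNA of 11 ES cell samples (3 serum/LIF, 5 2i/LIF, 3 KOSR/LIF) was labelled with Cy3 and hybridised to 1-colour Agilent arrays, whose number limits the precision. Per the file headers the arrays were read with Agilent Feature Extraction 11.0.1.1. The deposited scanner files give the processed signal as a background-subtracted intensity per spot, and control spots were left out. The authors' deposited value table holds values on a linear intensity scale, not centred, with column medians from 46.5 to 47.8. Their processing is not stated in the sources, and the table served only as an alternative.

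Intensities were taken to log2 and each array's 75th percentile was subtracted. Of 55681 probes, 27642 were named through their RefSeq accession. Spots of a probe were averaged, and the probe with the highest mean level stood for a gene. Probes well above background on at least 3 arrays were tested with limma 3.58.1 in R 4.3.3 (lmFit and eBayes over all 11 arrays, no covariates). P-values are two-sided and were adjusted by the Benjamini-Hochberg method over 16279 genes, with a threshold of 0.05. The procedure was checked on simulated data.

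Levels on every array are given for Hox genes that were called or whose media did not overlap. Counts and medians cover all members, while the values of 1 member and of some related genes are not reported here, nor drawn in the figures. At most 3 members with large changes are named with values from each list of related genes, and others where a level bears on a marker check. Cdx1 was singled out after its values were seen, and Cdx2 and Cdx4 are given beside it. The members and lists were chosen with earlier results of these data known. Same-numbered replicates did not deviate together (correlations from -0.20 to 0.18), so the numbers were not taken as pairs. Alternatives were normexp background correction (offset 50), quantile normalization, the authors' table, other filters and probe rules, blocks for scan day, slide, replicate number and line, and leaving out arrays. Normexp was planned on the mean signal and run on the median signal, since the files used here give that. Using the arrays of the first scan day only, raising dim signals to the detection limit, bounds without KOSR/LIF replicate 3, and leaving out the unmatched column of the authors' table were chosen after seeing the data.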

Additional observations from a re-analysis of the deposited data

How the results depend on the processing

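The number of Hox genes called was 9 in 2i/LIF against serum/LIF, 11 in KOSR/LIF against serum/LIF and 12 in 2i/LIF against KOSR/LIF. With normexp correction it was 5, 4 and 5. In 2i/LIF against serum/LIF it was 3 without 2i/LIF replicates 1 and 5, and 5 on the first scan day only. In KOSR/LIF against serum/LIF it was 6 with quantile normalization, 7 with the authors' table, 3 with that table without its unmatched column, 5 with no filter and 7 with line by title as a block. Leaving out 1 array at a time gave 4 to 11, 3 to 11 and 8 to 13 genes in these comparisons. The replicate number as a block gave 3, 5 and 6, although the samples share only a number. The difference of Hoxc12 between 2i/LIF and KOSR/LIF reversed to -0.13 with normexp correction. The cause was not tested.

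Over all genes the count in 2i/LIF against serum/LIF was 2722 and 1755 with normexp. In KOSR/LIF against serum/LIF it was 745, with 374 for normexp, 451 with no filter and 225 to 395 without serum/LIF replicate 1, 2 or 3 or KOSR/LIF replicate 1 or 2. In 2i/LIF against KOSR/LIF it was 2388, with 1517 for normexp and 1408 with the replicate block. Signals near background limit HoxD and the genes detected in 1 medium.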

Other observations

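Of 27 ParaHox and other homeobox genes 19 were tested. They did not share one direction in 2i/LIF against serum/LIF, with 3 higher and 2 lower. In KOSR/LIF against serum/LIF 1 was higher and 0 lower, and in 2i/LIF against KOSR/LIF 0 were higher and 4 lower. Their median differences in these comparisons were -0.01, 0.94 and -0.50 (log2), against 0.03, -0.03 and 0.02 over all genes tested. Dim signals of KOSR/LIF replicate 3 sit high on the scale and enter these medians. Otx2, a forebrain and midbrain factor, fell by 2.53 (log2) in 2i/LIF against serum/LIF and Lhx2 was 2.19 higher (adjusted p = 0.0107 and 0.0201). Irx3 fell by 4.78 in 2i/LIF against KOSR/LIF (adjusted p = 0.000975), and with dim signals raised it fell by 4.00. Of 7 posterior patterning regulators tested, Wnt3 lay at least 4.51-fold below serum/LIF in 2i/LIF (adjusted p = 0.0242), none passed in KOSR/LIF against serum/LIF (limma; 0 of 7), and in 2i/LIF against KOSR/LIF Nkx1-2 was 1.51 higher (0.86 with dim signals raised) and Gdf11 fell by 1.75 (adjusted p = 0.0128 and 0.0477). Of 11 Hox activators and H3K27 demethylases tested, Wdr5 was the 1 that passed, at 0.85 and 1.01 higher in 2i/LIF than in serum/LIF and KOSR/LIF (adjusted p = 0.0443 and 0.0218). Of 17 noncoding RNAs of the Hox clusters 2 were on the array, 1 was tested and 0 passed.

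Markers of differentiated cells are given beside the shares over all genes tested, of which 6.74% were higher and 9.98% lower in 2i/LIF against serum/LIF, 2.37% and 2.21% in KOSR/LIF against serum/LIF and 5.95% and 8.72% in 2i/LIF against KOSR/LIF. Of 7 posterior and lateral mesoderm markers tested, 1 was higher (Tbx4) and 2 lower in 2i/LIF against serum/LIF, among them Hand1, at least 11.7-fold lower (adjusted p = 0.000224). In 2i/LIF against KOSR/LIF 0 were higher and 2 lower, and in KOSR/LIF against serum/LIF 0 passed. Of 5 hindbrain and spinal neural markers tested, 2 were lower in 2i/LIF against serum/LIF and 3 against KOSR/LIF, of which Egr2 was not well above background in either medium. Against serum/LIF Pax6 fell by 3.58 (adjusted p = 0.000161), and with dim signals raised it fell by 2.56, while Egr2 was at least 2.65-fold lower (adjusted p = 8.31e-05). Of 7 trophoblast markers, Krt18 and Krt8 fell by 5.13 and 3.11 in 2i/LIF against serum/LIF (adjusted p = 5.00e-05 and 0.0217), 2 were lower in KOSR/LIF against serum/LIF and 1 in 2i/LIF against KOSR/LIF. Of 5 blood markers tested, Tal1 fell by 1.97 in 2i/LIF against serum/LIF (adjusted p = 0.00904) and by 1.46 against KOSR/LIF (adjusted p = 0.0482), with 0 passing in KOSR/LIF against serum/LIF. Dab2, of 7 primitive endoderm markers, fell by 4.12 in 2i/LIF against serum/LIF (adjusted p = 0.00471), and with dim signals raised it fell by 2.51. Of 10 ES cell markers 1 was higher and 1 lower in 2i/LIF against serum/LIF, 0 were higher and 2 lower in KOSR/LIF against serum/LIF, and 5 were higher in 2i/LIF against KOSR/LIF.

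A gene's other probe did not always detect it. The other probe of Hoxa9 was well above background on 8 of 11 arrays, and those of Hoxa13, Hoxb3 and Hoxd11 on 1 each.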
